A study of Mus musculus with 6 samples.

Results

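The transcripts of 8 genes whose proteins are known substrates or partners of nemo-like kinase (NLK) were measured in wild-type (WT) and Nlk-KO cells: the FOXO family (Foxo1, Foxo3, Foxo4 and Foxo6), Stat3, Myb, Setdb1 and Chd7. Each gene was taken as the locus that carries its symbol in the deposited table, which gave 8 of 26657 loci, 1 for each gene. The rule names the genes by what their proteins are known to do with NLK and uses no measured value. The genes were, however, chosen with earlier results of these data known. The cells were N2a, a mouse neuroblastoma line, and 3 WT libraries were compared with 3 Nlk-KO libraries of poly(A) RNA. The Nlk-KO cells were derived from N2a with the Cas9 nickase and paired guides against Nlk, and clones were picked by the loss of NLK protein. N2a cells are polyploid, neither genotype carried another stated modification, and neither the labels nor the methods say which clone gave which library. The p-values therefore rest on the variation among these 6 libraries alone, part of which may be technical.

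NLK is a proline-directed serine and threonine kinase, a distant relative of the MAP kinases, that is active in Wnt, TGF-beta and cytokine signalling. It phosphorylates FOXO1, which then leaves the nucleus, and STAT3 in the part of the protein that activates transcription, and it marks the MYB protein for degradation together with HIPK2. Downstream of Wnt5a it phosphorylates SETDB1, a histone methyltransferase, which then joins CHD7, a chromatin remodeller, and represses the targets of PPARG. These are all effects on proteins, and the values here are levels of transcripts. RNA-seq does not show phosphorylation, protein level or location in the cell.

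Expression was given as FPKM, fragments scaled to transcript length and library depth by the authors, whose method of scaling between libraries is not given in the sources used here. Genotypes were compared with limma, on log2 values with 0.1 FPKM added, in the 12667 loci that averaged 0.5 FPKM or more, and a locus was called where its Benjamini-Hochberg adjusted p was under 0.05. Fold changes on this scale are understated for low genes. In all, 4697 loci (37.1%) were called, 2356 higher (18.6%) and 2341 lower (18.5%) in Nlk-KO cells, and the genotypes did not overlap in 51.0% of loci. Depth, read from the steps of low values, was 0.979 to 1.29 times that of WT replicate 1. Nlk itself went from 16.2 ± 0.390 to 6.88 ± 0.119 FPKM (SD, n = 3 each). Of 16 markers of sympathetic neuroblasts, Hand2 (374 and 398 FPKM) and Phox2a (138 and 150 FPKM) were high in both genotypes, while 6 of 14 tested were called lower and 1 higher in Nlk-KO cells. The lower ones included Dbh and Th, enzymes of catecholamine synthesis. The fibroblast collagens Col1a1, Col1a2 and Col3a1 were at or under 0.0377 FPKM on average in both genotypes, although 2 of 9 fibroblast markers could be tested and both, Pdgfra and Fbln1, were called higher. Of 7 glial markers 2 were tested and neither was called. Of 8 blood markers, Cd68 was tested only as part of a locus merged with other genes and was not called. The part of these differences in the results that follow was not tested.

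Myb, Foxo3 and Foxo4 were the 3 members whose transcripts differed between genotypes. Myb fell, Foxo3 was lower and Foxo4 rose. The calls of Foxo3 and Foxo4 ended when libraries were scaled to the same FPKM sum. They held with the same upper quartile and with quantile normalization. In bulk RNA, fewer cells with a transcript and less of it per cell cannot be told apart. Stat3, Setdb1 and Chd7 were well expressed in both genotypes and were not called, and Foxo1 and Foxo6 were barely detected or listed at 0. Of the 6 members tested, 1 was called higher and 2 lower, beside 37.1% of all loci, and the genotypes did not overlap in 4 of 6, beside 51.0% of all loci. The median log2 fold change of the 6 was -0.03, against -0.01 over all loci tested. With so few members these shares do not set the group apart from other genes.

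**Figure D1:**
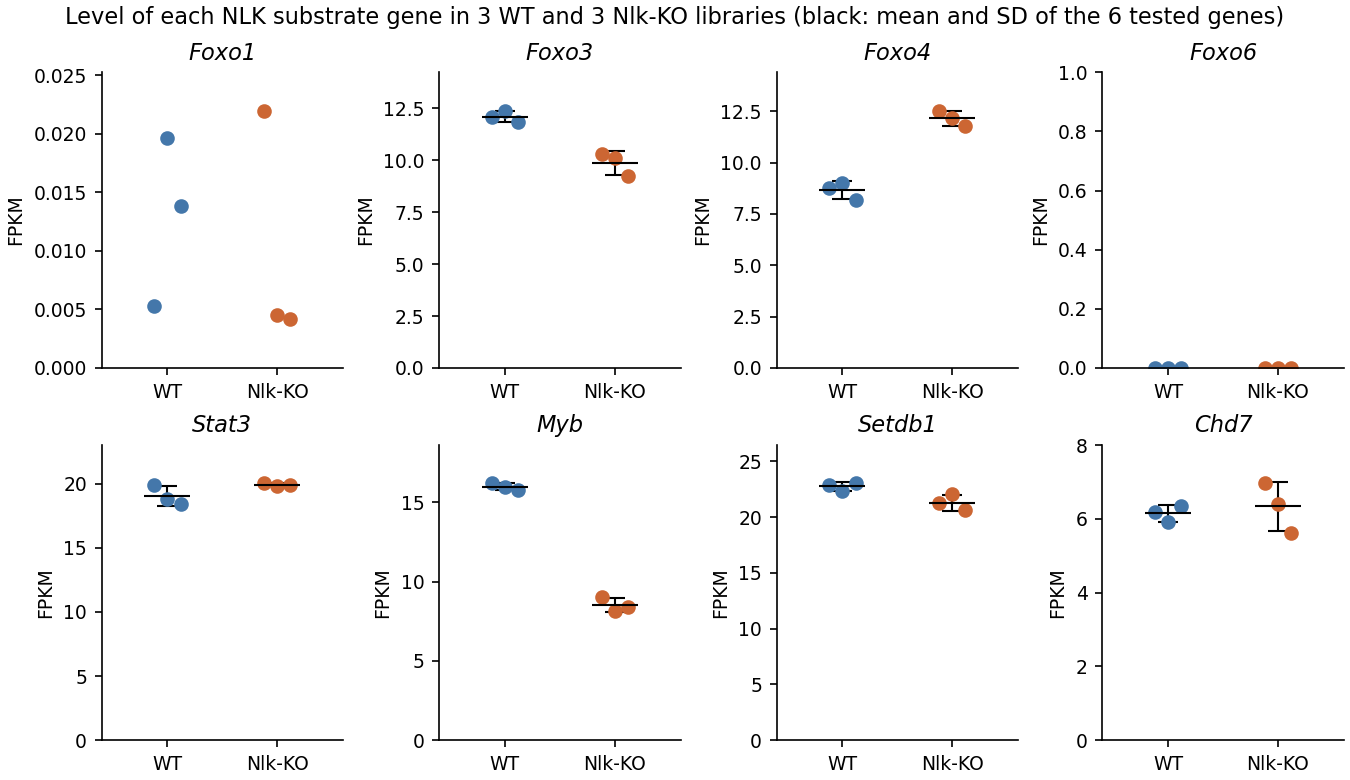
FPKM of each of the 8 genes in the 3 WT (blue) and 3 Nlk-KO (orange) libraries, each panel with its own axis from 0, with the mean and SD in black for the 6 genes tested. Myb lies between 15.8 and 16.2 FPKM in WT and between 8.13 and 9.02 FPKM in Nlk-KO libraries, while Foxo6 is listed at 0 in all 6.

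Myb, which encodes the proto-oncogene MYB, a transcription factor of immature blood cells and other progenitors, showed the largest change of the members. Its locus lies on the minus strand of chromosome 10 (GRCm38 chr10:21124929-21160984), and the first annotated transcript has 15 exons. The 250 bases before its annotated start (GRCm38.p6, chr10:21160985-21161234, minus strand, sequence from RefSeq) are shown here because Myb carried the largest change, with each CG dinucleotide in capitals:
Myb: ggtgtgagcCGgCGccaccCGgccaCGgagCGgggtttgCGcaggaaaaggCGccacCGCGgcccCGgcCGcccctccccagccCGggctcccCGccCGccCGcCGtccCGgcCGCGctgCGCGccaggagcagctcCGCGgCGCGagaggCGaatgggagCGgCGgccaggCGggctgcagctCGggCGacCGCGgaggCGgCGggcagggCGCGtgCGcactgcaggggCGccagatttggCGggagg
They held 40 CG dinucleotides and were 81.2% G and C, more CG than in 98.7% of all 32851 mouse promoter windows of this length, whose medians were 6 and 52.4%. Myb measured 16.2, 16.0 and 15.8 FPKM in the WT libraries 1 to 3, against 9.02, 8.13 and 8.42 FPKM in the Nlk-KO libraries 1 to 3. Every Nlk-KO library was far below every WT library, and the spread within each genotype was small beside the gap. The mean fell from 16.0 ± 0.214 to 8.52 ± 0.455 FPKM (SD, n = 3 each), a log2 fold change of -0.90 (standard error 0.046, limma adjusted p = 1.44e-05), which places the fold between 0.496 and 0.577 at 95% confidence. The size of this change exceeded that of 95.2% of tested loci. An antisense gene of unknown role, Gm26577, overlaps Myb, and whether the authors counted reads by strand is not given in the sources used here.

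Loci on chromosome 10 were lower in Nlk-KO cells as a group, and this touches both Myb and Foxo3. The median log2 fold change of its 646 tested loci was -0.20, with 52 called higher and 326 lower. After the median of each gene's own chromosome was subtracted, Myb was still called (-0.72, limma adjusted p = 2.95e-05). Among the 20 tested loci nearest to Myb, the median log2 fold change was -0.16, and 2 of them lay below Myb.

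Foxo3 and Foxo4 moved in opposite directions, so that Foxo4 took the place of Foxo3 as the FOXO gene with the higher transcript level. Both encode forkhead factors that drive genes of cell cycle arrest, apoptosis and stress resistance when insulin or growth factor signalling is low, and that are held in the cytoplasm when AKT phosphorylates them. Foxo3 (minus strand, chr10:42181844-42277038, 4 exons) measured 12.1, 12.4 and 11.8 FPKM in the WT libraries 1 to 3, against 10.3, 10.1 and 9.22 FPKM in the Nlk-KO libraries 1 to 3. All Nlk-KO values were below all WT values, with the lowest in replicate 3. The mean was 12.1 ± 0.277 in WT and 9.89 ± 0.582 FPKM in Nlk-KO cells (SD, n = 3 each), a difference of -18.3% and a log2 fold change of -0.29 (standard error 0.051, limma adjusted p = 0.00419). This call ended when chromosome medians were removed (-0.11, adjusted p = 0.180). It also ended when libraries were scaled to the same FPKM sum over loci with a symbol (-0.23, adjusted p = 0.865). The 20 nearest tested loci had a median of -0.12, with 7 called lower and 2 higher, and 6 of them lay below Foxo3.

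Foxo4 (plus strand, chrX:101254527-101260873, 3 exons) measured 8.75, 9.03 and 8.17 FPKM in the WT libraries 1 to 3, against 12.5, 12.2 and 11.8 FPKM in the Nlk-KO libraries 1 to 3. Every Nlk-KO library was above every WT library. The mean rose from 8.65 ± 0.438 to 12.2 ± 0.371 FPKM (SD, n = 3 each), a log2 fold change of 0.49 (standard error 0.049, limma adjusted p = 3.29e-04) with the fold between 1.29 and 1.52 at 95% confidence. The X chromosome had a median of 0.05 over 413 loci, and Foxo4 was still called after chromosome medians were removed (0.50, adjusted p = 6.64e-04). Of its 20 nearest tested loci, whose median was 0.07, 18 lay below it. With the same FPKM sum in each library, the difference was 0.55 and was not called (adjusted p = 0.0861).

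The summed level of the FOXO transcripts overlapped between genotypes, while their proportions did not. The sum was 20.8 ± 0.713 FPKM in WT and 22.1 ± 0.946 FPKM in Nlk-KO cells (SD, n = 3 each, exact permutation p = 0.2, two-sided). Foxo3 made up 58.3 ± 0.713% of it in WT and 44.8 ± 0.811% in Nlk-KO cells, and Foxo4 41.7 ± 0.715% and 55.1 ± 0.826%. The ratio of Foxo4 to Foxo3 was 0.724, 0.729 and 0.691 in the WT libraries 1 to 3, against 1.22, 1.20 and 1.28 in the Nlk-KO libraries 1 to 3. Foxo3 was thus the higher gene in each WT library and Foxo4 in each Nlk-KO library. An exact permutation test of the ratio gave p = 0.1 (two-sided, n = 3 each), the smallest value that 3 against 3 libraries allow. A common scaling of a library leaves this ratio as it is. Removing chromosome medians does not, as the genes lie on chromosomes 10 and X. The log2 fold change then went from -0.29 to -0.11 for Foxo3 and from 0.49 to 0.50 for Foxo4.

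**Figure D2:**
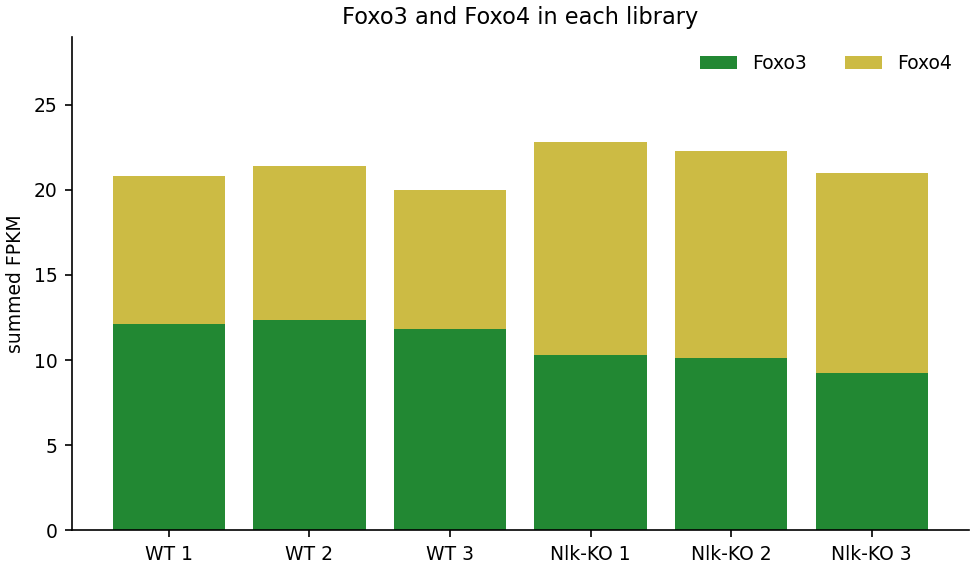
Stacked bars of the FPKM of Foxo3 (green) and Foxo4 (yellow) in each library, from 0. The stacks reach similar heights in both genotypes, 20.8 FPKM on average in WT and 22.1 FPKM in Nlk-KO libraries, while the share of Foxo4 is larger in each Nlk-KO library.

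Foxo1, the FOXO member on which NLK is best studied, was at the edge of detection. Its locus (plus strand, chr3:52268336-52350109) measured 0.00532, 0.0196 and 0.0139 FPKM in the WT libraries 1 to 3, against 0.0220, 0.00449 and 0.00416 FPKM in the Nlk-KO libraries 1 to 3. These values lie on the steps of whole fragments, within 0.0585 of a whole number, and stand for 1, 4 and 3 fragments in WT and 4, 1 and 1 in Nlk-KO libraries. The 8 and 6 fragments give a depth-adjusted ratio of Nlk-KO to WT of 0.700, with an exact 95% interval of 0.20 to 2.30 that covers counting error only. A change of Foxo1 was not detectable at this depth. Foxo6 (minus strand, chr4:120267077-120287261), a FOXO gene of brain, was listed at 0 in all 6 libraries. Dyrk1a, a broadly used kinase gene, was likewise listed at 0 in all WT libraries, so for Foxo6 only the listing is given.

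Stat3, which encodes the factor that carries signals of interleukin-6 and related cytokines to the nucleus, was not called. Its locus (minus strand, chr11:100886809-100939511, 24 exons) measured 19.9, 18.8 and 18.4 FPKM in the WT libraries 1 to 3, against 20.1, 19.8 and 19.9 FPKM in the Nlk-KO libraries 1 to 3. WT replicate 1 lay within the Nlk-KO range, so the genotypes overlapped. The means were 19 ± 0.785 and 19.9 ± 0.132 FPKM (SD, n = 3 each), a log2 difference of 0.07 (95% interval -0.02 to 0.16, limma adjusted p = 0.212). Removing chromosome medians, that of chromosome 11 being -0.06, gave 0.14 and a call (adjusted p = 0.0326). Stat3 overlaps Stat5a, which lies on the opposite strand and was called higher, so reads of the overlap could not be told apart if strand was not used.

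Setdb1 and Chd7, the chromatin partners of the NLK pathway, were not called. Setdb1 encodes a methyltransferase that silences repeats and genes through histone H3. Its locus (minus strand, chr3:95315251-95357227, 22 exons) had the highest level of the 8 genes, with 22.9, 22.3 and 23.1 FPKM in the WT libraries 1 to 3, against 21.2, 22.1 and 20.6 FPKM in the Nlk-KO libraries 1 to 3. The highest Nlk-KO value lay just under the lowest WT value, so the genotypes did not overlap. The means of 22.8 ± 0.375 and 21.3 ± 0.717 FPKM (SD, n = 3 each) gave a log2 difference of -0.09 (95% interval -0.18 to -0.01, limma adjusted p = 0.0800), which was not called. It became called without Nlk-KO replicate 2 (-0.12, adjusted p = 0.0438), and its sign turned when chromosome medians were removed (0.05, adjusted p = 0.480), chromosome 3 having a median of -0.10. The locus in the files starts before the annotated gene and overlaps Cers2 on the other strand.

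Chd7 encodes a chromodomain helicase of the neural crest, mutated in CHARGE syndrome. Its locus (plus strand, chr4:8690369-8868449, 38 exons) measured 6.19, 5.91 and 6.35 FPKM in the WT libraries 1 to 3, against 6.97, 6.41 and 5.63 FPKM in the Nlk-KO libraries 1 to 3. The Nlk-KO libraries fell on both sides of the WT libraries and spread more widely. The means were 6.15 ± 0.225 and 6.34 ± 0.675 FPKM (SD, n = 3 each), a log2 difference of 0.04 (95% interval -0.15 to 0.22, limma adjusted p = 0.744). The sign was not stable, at -0.03 without Nlk-KO replicate 1 and -0.01 with chromosome medians removed.

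**Figure D3:**
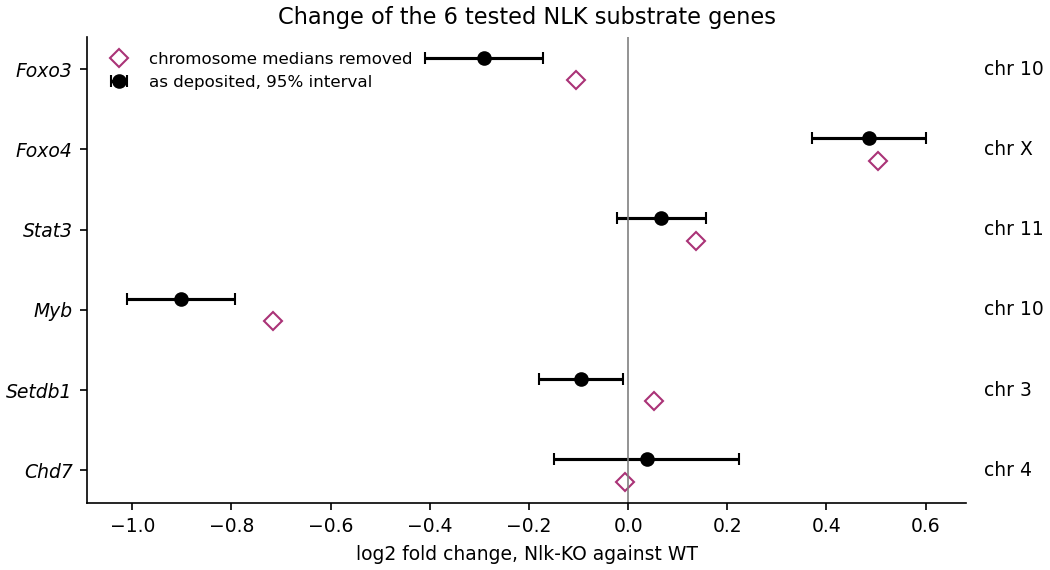
Log2 fold change (Nlk-KO against WT) of the 6 tested genes, with black points and bars for the values as deposited and their 95% intervals, and open diamonds after subtracting the median of the gene's own chromosome. Myb (-0.90 and -0.72) and Foxo4 (0.49 and 0.50) stand clear of 0 both ways, while Foxo3 moves from -0.29 to -0.11.

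By mean FPKM, which is scaled to length, the order in WT libraries was Setdb1, Stat3, Myb, Foxo3, Foxo4, Chd7, Foxo1 and Foxo6. In Nlk-KO libraries it was Setdb1, Stat3, Foxo4, Foxo3, Myb, Chd7, Foxo1 and Foxo6. In neither genotype did the ranges of neighbours in the order overlap. Myb and Foxo4 thus changed places around Foxo3.

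Among the 20 tested loci nearest to each of the other members, the medians were -0.02 at Stat3, -0.11 at Setdb1 and 0.13 at Chd7. At Stat3, 6 of the 20 were called higher and 3 lower. Those at positions -2 and -1, Stat5b (0.80) and Stat5a (0.47), and at 1 and 2 (1.70 and 1.10) were all called higher. At Setdb1, 7 of the 20 were called lower and 0 higher, and 11 lay below Setdb1 itself. At Chd7, 4 were called higher and 0 lower.

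**Figure D4:**
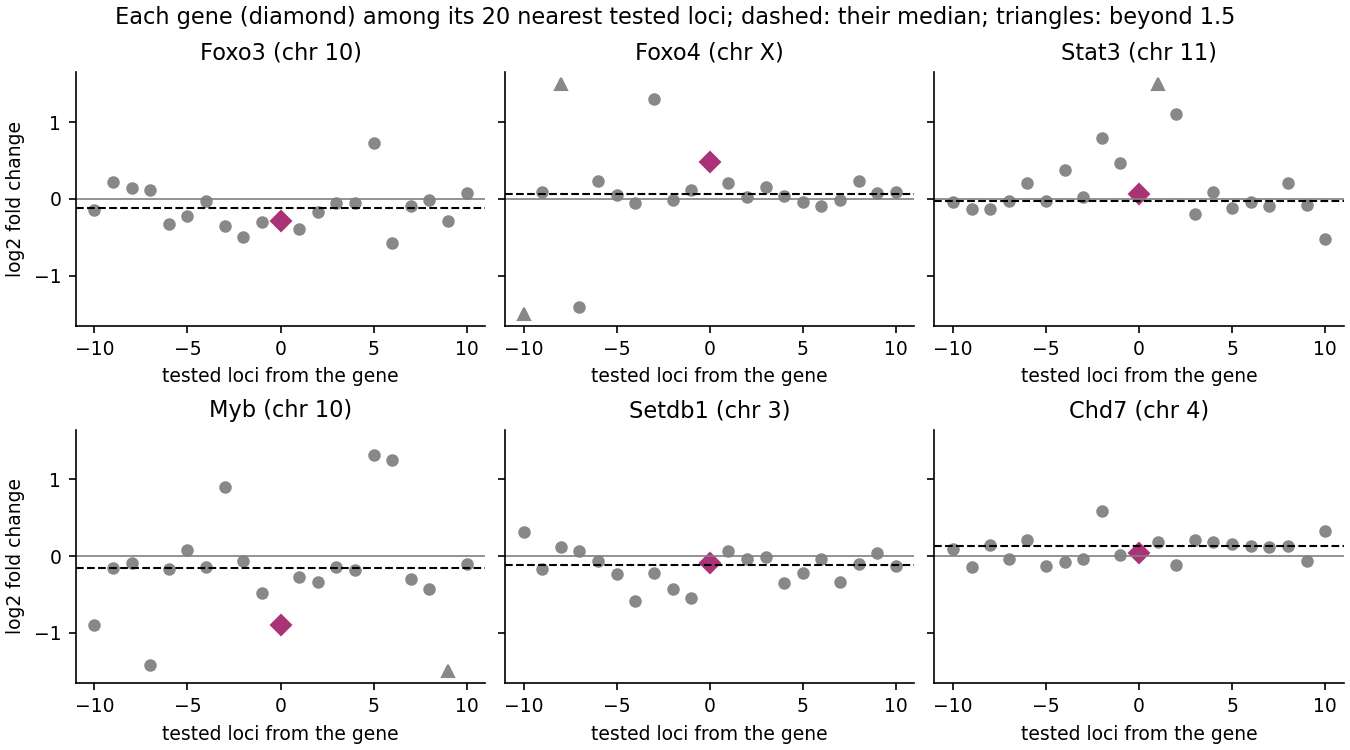
Log2 fold change of each tested gene (diamond, position 0) and of the 10 tested loci on either side in chromosome order (grey), with the neighbours' median dashed and values beyond 1.5 drawn as triangles at the edge. Myb and Foxo4 lie apart from most neighbours (2 of 20 below Myb, 18 of 20 below Foxo4), while Foxo3, Setdb1, Stat3 and Chd7 lie among theirs.

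The genes whose profile over the 6 libraries was most like that of a member were searched among 8233 loci that averaged 5 FPKM or more, by the root mean square difference of centred log2 values. For Foxo3 they were Maff (0.00575) and Rinl (0.0224), and for Foxo4 Prex1 (0.0245) and Efhd2 (0.0246). For Myb they were 4930506M07Rik (0.0355) and Add3 (0.0481). For Stat3 they were Sema4b (0.0189) and Lrpprc (0.0193), for Setdb1 Zcchc4 (0.0156) and Plekha5 (0.0158), and for Chd7 Smyd3 (0.0232) and Mib1 (0.0299). With 6 libraries in 2 groups, such likeness mostly repeats the difference between genotypes.

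The genes around the members, as ligands, receptors, kinases, partners and targets, were taken from 18 lists that hold 262 genes, Stat3 among them. Of these, 206 were tested, 45 called higher and 35 lower (38.8%, beside 37.1% of all loci), with a median log2 fold change of 0.03. In 53 of the 80 called genes the call held whichever single library was left out. With the same FPKM sum in each library, 12 list genes were called. A value given after a gene without a unit is its log2 fold change, Nlk-KO against WT. The genes named from each list are up to 4 with the largest change, and others are named after their values were seen.

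**Figure D5:**
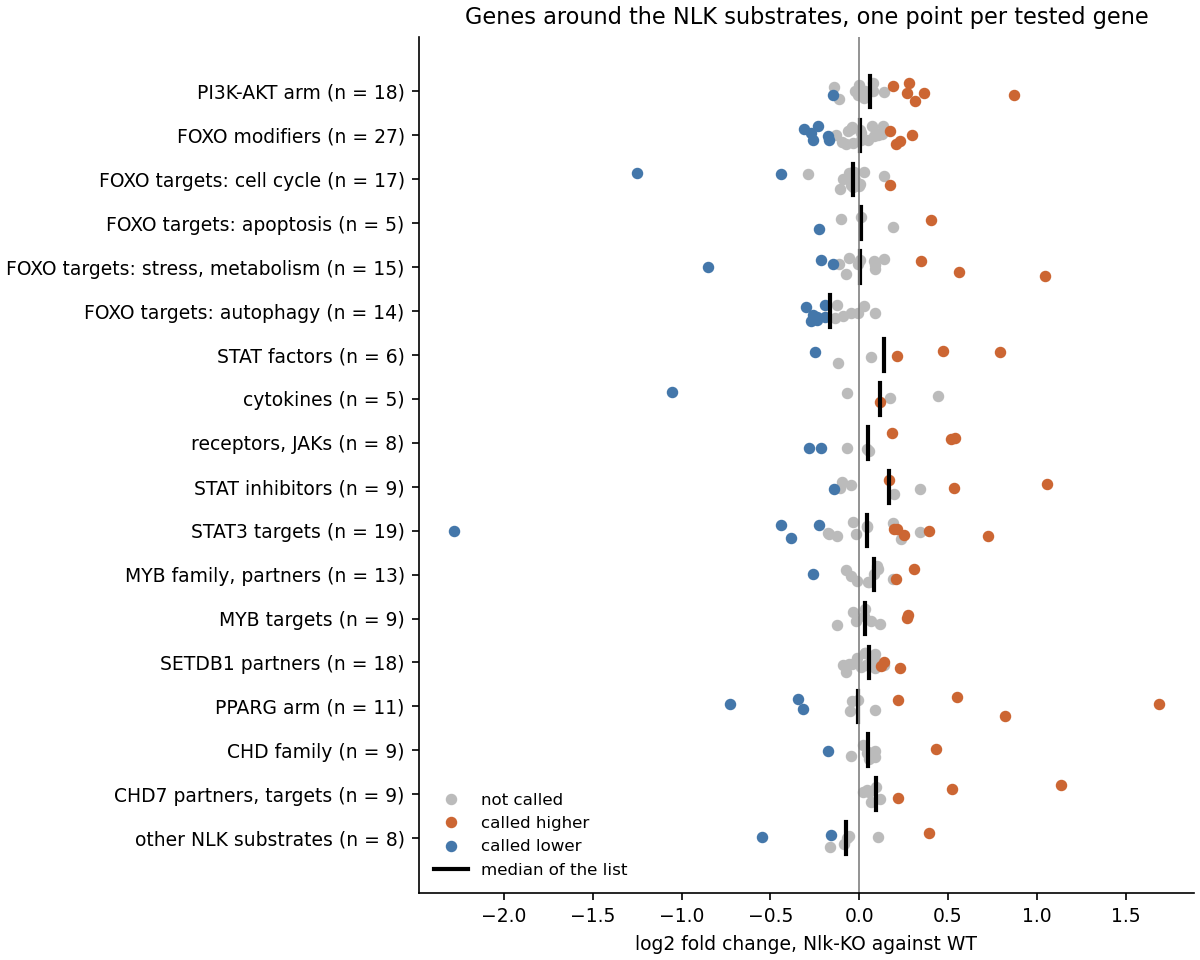
Log2 fold change (Nlk-KO against WT) of each tested gene of the 18 lists, orange where called higher, blue where called lower and grey otherwise, with the list's median as a black bar. Most genes lie near 0, and the largest changes are single genes such as Wnt5a (1.69), Jag1 (1.13), Socs2 (1.06), Gadd45b (-1.25) and Timp1 (-2.28). Timp1 passed the filter of 0.5 FPKM only through its WT libraries.

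Upstream of FOXO, 18 genes of insulin and PI3K signalling were tested, of which 6 were called higher and 1 lower (38.9% called, beside 37.1% of all loci), with a median log2 fold change of 0.06. With chromosome medians removed, 4 were called higher and 1 lower. Irs1, the adaptor that links insulin and IGF receptors to PI3K, measured 4.07, 4.13 and 4.13 FPKM in the WT libraries 1 to 3, against 7.75, 7.78 and 7.34 FPKM in the Nlk-KO libraries 1 to 3. All Nlk-KO libraries were well above all WT libraries (log2 fold change 0.87, standard error 0.05, limma adjusted p = 1.50e-05). The regulatory PI3K subunits Pik3r3 (0.36) and Pik3r1 (0.28) were also called higher, and their calls held with chromosome medians removed. The merged locus that holds Pik3r2, a further regulatory subunit, measured 163 FPKM in WT and 147 in Nlk-KO and was the 1 called lower (-0.15, adjusted p = 0.0204), and this call ended without replicate 1 of either genotype or replicate 3 of Nlk-KO (adjusted p up to 0.0722). The receptors Insr (-0.01) and Igf1r (0.19) and the kinases Akt1 (0.04) and Akt2 (0.08) differed less. Of these only Igf1r was called, and its call ended without each library but Nlk-KO replicate 3 (adjusted p up to 0.120).

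Among 27 tested genes for proteins that bind or modify FOXO, 4 were called higher and 6 lower (37.0% called, beside 37.1% of all loci). Their median was 0.00. Mdm2, a ubiquitin ligase of p53 and FOXO factors that lies on chromosome 10, went from 51.3 ± 0.498 to 41.4 ± 1.63 FPKM (SD, n = 3 each), a log2 change of -0.31 (limma adjusted p = 6.87e-04). Sirt1, a deacetylase of FOXO on the same chromosome, was at -0.27, and Ywhah, a phosphoserine-binding adaptor, at -0.26. Stk4, the kinase MST1 that phosphorylates FOXO under oxidative stress, was higher (0.30). The calls of Mdm2 (-0.13), Ywhah (-0.18) and Stk4 (0.12) held with chromosome medians removed, at these smaller values, and that of Sirt1 did not (-0.09, adjusted p = 0.0985).

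The known target genes of FOXO did not move as 1 group. Of 62 targets 51 were tested, 5 called higher and 13 lower (35.3% called, beside 37.1% of all loci), with a median of -0.05, and 10 of these 18 calls held whichever library was left out. A promoter window of 250 bases was at hand for 49 of the targets, and 7 of them held the FOXO motif GTAAACA on either strand. This was 11.3% of the 62 windows of these genes, against 3.17% of all mouse promoter windows, and a match is a description and not a shown site. The stretches of 30 bases around the matches (GRCm38.p6, RefSeq, each 5′ to 3′ along the gene) are shown because they are the parts of these promoters that hold the motif, which is in capitals:
Btg1: gggggtttattTGTTTACaagcagattacg
Mxi1: cgcgcggagaaGTAAACAaaccgcgcgcgg
Bcl2l11: aagacactaggGTAAACAcgccggggtggg
Bbc3: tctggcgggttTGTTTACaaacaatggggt
Txnip: ttggaggcctgGTAAACAagggccaagtag
Sepp1: cagagggcgagGTAAACAacagggctataa
Trim63: cagtctgttctTGTTTACgacccccacggc
They lie on the plus strand, Btg1 at chr10:96616786-96616815, Mxi1 at chr19:53329453-53329482, Bcl2l11 at chr2:128125800-128125829, Bbc3 at chr7:16310083-16310112, Txnip at chr3:96557825-96557854, Sepp1 at chr15:3270942-3270971 and Trim63 at chr4:134314915-134314944. Of these 7 genes, Txnip, an inhibitor of thioredoxin and glucose uptake, fell from 9.75 ± 0.314 to 5.36 ± 0.216 FPKM (SD, n = 3 each), a log2 change of -0.85 (limma adjusted p = 2.29e-05), and Bcl2l11, the pro-apoptotic gene of BIM, rose from 1.11 ± 0.0290 to 1.5 ± 0.0449 FPKM (0.40, adjusted p = 0.0107). Txnip kept its call with chromosome medians removed (-0.70), and Bcl2l11, of chromosome 2, lost it (0.23, adjusted p = 0.10). Sepp1 was low and scattered among Nlk-KO libraries (0.367 ± 0.0839 and 0.912 ± 0.446 FPKM, 1.05), and its call ended without each library but Nlk-KO replicate 3 (adjusted p up to 0.101). Btg1 (-0.03), Mxi1 (-0.11) and Bbc3 (-0.10) were not called, and Trim63 lay under the filter. Genes with the same motif were thus called higher, called lower or not called.

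Of 17 tested FOXO targets of the cell cycle 1 was called higher and 2 lower (17.6% called, beside 37.1% of all loci). With chromosome medians removed, 7 in all were called. Of 15 targets of stress defence and metabolism 3 were called higher and 3 lower (40.0% called). The higher cell cycle gene was Gadd45a (0.17), whose call ended without any 1 of the 6 libraries (adjusted p up to 0.109) and with chromosome medians removed (0.13, adjusted p = 0.153). Of 5 tested targets of apoptosis 1 was called higher, Bcl2l11, and 1 lower, Trib3 (-0.23), or 40.0% called. The call of Trib3 ended without replicate 1 or 2 of WT or replicate 3 of Nlk-KO (limma adjusted p up to 0.0631). Gadd45b, which encodes a stress sensor on chromosome 10, fell from 7.03 ± 0.300 to 2.89 ± 0.0826 FPKM (SD, n = 3 each), a log2 change of -1.25 (limma adjusted p = 6.63e-06), and its call held with chromosome medians removed (-1.07). Ccnd1, cyclin D1, which FOXO factors are known to repress, fell from 82.6 ± 2.68 to 61.0 ± 2.39 FPKM (-0.44, adjusted p = 2.53e-04). The arrest genes Cdkn1a (-0.09) and Cdkn1b (-0.05), classical FOXO targets, were not called. Trib1, a pseudokinase gene, was higher (0.56), as was Cat, catalase (0.35, and 0.17 with chromosome medians removed), while Sesn1, a sestrin gene of chromosome 10, was lower (-0.22) and lost its call with chromosome medians removed (-0.03, adjusted p = 0.587). Genes of gluconeogenesis and of the liver response to fasting, Pck1, G6pc and Igfbp1, were listed at 0 in all libraries.

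Of 14 tested FOXO targets of autophagy and mitophagy, 0 were called higher and 7 lower (50% called, beside 37.1% of all loci, of which 18.5% lower), with a median of -0.17 against -0.01 over all loci. Map1lc3b, which encodes the LC3B protein of autophagosome membranes, went from 71.7 ± 3.45 to 60.8 ± 1.95 FPKM (SD, n = 3 each), a log2 change of -0.24 (limma adjusted p = 0.00601). Gabarapl1, of the same protein family, was at -0.19, and Ulk1, the kinase that starts autophagy, at -0.26. The calls of these 3 held whichever library was left out and with chromosome medians removed. Those of Ulk2 (-0.30), Pink1 (-0.27), Atg5 (-0.24) and Pik3c3 (-0.19) each ended without 4 or 5 of the 6 libraries. The count of 7 became 3 without WT replicate 1, 3 without WT replicate 2, and 4 without Nlk-KO replicate 1, 2 or 3, and it was 0 with the same FPKM sum in each library. Becn1 (-0.01), Map1lc3a (0.03) and Tfeb (0.09), a master regulator of lysosomal genes, were not called.

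Around Stat3, other STAT genes and a feedback inhibitor changed while Stat3 itself was not called. Of 6 tested STAT genes, Stat3 among them, 3 were called higher and 1 lower (66.7% called, beside 37.1% of all loci). Stat5b, which carries signals of growth hormone and prolactin, measured 2.49, 2.22 and 2.11 FPKM in the WT libraries 1 to 3, against 3.99, 4.12 and 3.92 FPKM in the Nlk-KO libraries 1 to 3. The genotypes were well apart (log2 fold change 0.80, standard error 0.08, limma adjusted p = 2.49e-04). Stat5a, its neighbour, was low in both genotypes (0.781 and 1.12 FPKM, 0.47), and Stat6 was at 0.22. Stat2 was at -0.25 and lost its call with chromosome medians removed (-0.06, adjusted p = 0.455).

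Of the cytokines that act through STAT3, Il6 fell from 3.34 ± 0.216 to 1.56 ± 0.0620 FPKM (SD, n = 3 each), a log2 change of -1.05 (limma adjusted p = 7.06e-05). Its specific receptor Il6ra was at 0.0333 and 0.0313 FPKM, Lifr was near 0 and Osmr was listed at 0. The shared subunit Il6st (6.68 and 6.88 FPKM) and Cntfr (62.2 and 59.3 FPKM), the receptor of ciliary neurotrophic factor, were present and not called. Of 5 tested cytokines 1 was called higher, the merged locus of Cntf (0.12), and 1 lower (40.0% called, beside 37.1% of all loci). The call of Cntf ended without replicate 1 or 2 of WT or replicate 1 or 3 of Nlk-KO (limma adjusted p up to 0.108). Of 8 tested receptors and kinases 3 were called higher and 2 lower (62.5% called, beside 37.1% of all loci). Without WT replicate 1 or Nlk-KO replicate 3, 3 in all were called. Egfr was at 0.54, Src at 0.52 (0.34 with chromosome medians removed) and Jak1 at -0.28. Tyk2 was at -0.21, and its call ended without each library but WT replicate 3 (adjusted p up to 0.129).

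Of 9 tested inhibitors of STAT signalling 3 were called higher and 1 lower (44.4% called, beside 37.1% of all loci). Without Nlk-KO replicate 3, 2 in all were called. Socs2, a suppressor of cytokine signalling on chromosome 10 that is induced through STAT5, measured 11.6, 12.2 and 13.1 FPKM in the WT libraries 1 to 3, against 26.0, 24.0 and 27.3 FPKM in the Nlk-KO libraries 1 to 3. Each Nlk-KO library was far above each WT library (log2 fold change 1.06, standard error 0.06, limma adjusted p = 2.53e-05), on a chromosome where most called loci were lower. Cish, of the same family, went from 0.472 to 0.727 FPKM (0.53, adjusted p = 0.0242), and its call ended without replicate 1 of either genotype or replicate 3 of Nlk-KO (adjusted p up to 0.0672). The WT mean of Cish was under 0.5 FPKM, so it passed the filter only through its Nlk-KO libraries. Socs3, the inhibitor most tied to STAT3, was at 0.940 ± 0.124 and 1.21 ± 0.0781 FPKM (0.34, adjusted p = 0.0716) and was not called.

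Of 19 tested STAT3 targets 5 were called higher and 4 lower (47.4% called, beside 37.1% of all loci), with a median of 0.04. Zfp36, an RNA-binding protein that destabilizes cytokine transcripts, rose from 3.61 ± 0.320 to 6.02 ± 0.287 FPKM (SD, n = 3 each), a log2 change of 0.72 (limma adjusted p = 3.84e-04). Timp1, an inhibitor of matrix proteases, was at 1.55 ± 0.149 and 0.268 ± 0.161 FPKM (-2.28, adjusted p = 0.00265). Vim, of chromosome 2, was higher (0.39, and 0.22 with chromosome medians removed), Pim1 was higher (0.25), and Birc5, survivin, was lower (-0.23). Fos was at -0.39, and its call ended without each library but WT replicate 2 (adjusted p up to 0.112). The STAT motif TTCNNNGAA was in 3 of the 27 promoter windows of STAT3 targets (11.1%, against 7.02% of all windows), and is shown in capitals for the gene of these that rose and for the feedback inhibitor:
Zfp36: gccacagcctgacTTCTGCGAAccgacagt
Socs3: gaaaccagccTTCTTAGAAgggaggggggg
These windows lie at chr7:28379229-28379258 and chr11:117969501-117969530 (GRCm38.p6, minus strand).

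The close relatives of Myb were not called. Mybl1 was at 8.08 ± 0.427 and 8.39 ± 0.0710 FPKM and Mybl2 at 29 ± 1.59 and 30.7 ± 0.603 FPKM (SD, n = 3 each). Of 13 tested relatives and partners 2 were called higher and 1 lower (23.1% called, beside 37.1% of all loci). Hipk2, the kinase that acts with NLK on MYB, rose from 9.91 ± 0.493 to 12.3 ± 0.946 FPKM (log2 fold change 0.31, limma adjusted p = 0.00876), and Hipk1 was at -0.26 and lost its call with chromosome medians removed (-0.12, adjusted p = 0.135). Fbxw7 (0.10), which encodes a ubiquitin ligase subunit that binds MYB, was not called.

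Of 9 tested targets of MYB, 2 were called higher and 0 lower (22.2% called, beside 37.1% of all loci), Ada (0.27) and the merged locus that holds Pcna (0.27), both on chromosome 2, whose median over 1042 loci was 0.19. Neither was called after chromosome medians were removed. Ada also lost its call without replicate 1 or 2 of WT or replicate 3 of Nlk-KO (adjusted p up to 0.0956). Myc (-0.12), Bcl2 (-0.02), Ccnb1 (-0.04) and Hspa8 (0.03) were not called, and Kit and Cdk6 were at or near 0. The MYB motif TAACNG was in 1 of 11 promoter windows of these genes, that of Mat2a (9.09%, against 19.8% of all windows). In the windows of the 5 members that have one (Foxo1, Foxo3, Stat3, Myb and Setdb1), 4 motifs were searched on both strands, the FOXO, STAT and MYB motifs given here and CACGTG, the core of the motif of TFEB, which was in 6.02% of all windows. The single match was to the MYB motif, in Foxo1 at position -170 from the start.

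Of 18 tested partners of SETDB1 in silencing, 3 were called higher and 0 lower (16.7% called, beside 37.1% of all loci), Ehmt1 (0.23), Morc2a (0.14) and the merged locus of Setdb2 (0.13). None of these calls held whichever library was left out: that of Ehmt1 ended without Nlk-KO replicate 1 (adjusted p = 0.0540), and the count of 3 became 0 without it and 1 without WT replicate 1 or 2. With chromosome medians removed, Ehmt1, of chromosome 2, was at 0.05 (adjusted p = 0.522) and Setdb2 at 0.12 (adjusted p = 0.0627), neither called. Trim28 (167 and 177 FPKM), the corepressor that brings SETDB1 to its sites, was not called.

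Of 11 tested genes of the arm from Wnt5a to PPARG, 4 were called higher and 3 lower (63.6% called, beside 37.1% of all loci). Their median log2 fold change was -0.005, and the activity of the arm was not measured. Wnt5a, the ligand, measured 1.91, 2.14 and 2.1 FPKM in the WT libraries 1 to 3, against 7.13, 6.62 and 6.69 FPKM in the Nlk-KO libraries 1 to 3. The genotypes did not approach each other (log2 fold change 1.69, standard error 0.07, limma adjusted p = 4.09e-06). Pparg, the nuclear receptor that the SETDB1 and CHD7 complex restrains, fell from 4.90 ± 0.358 to 3.83 ± 0.20 FPKM (SD, n = 3 each), or -0.35 (adjusted p = 0.00808). Its partner Rxra, of chromosome 2, was at 0.854 and 1.29 FPKM (0.55) and lost its call with chromosome medians removed (0.37, adjusted p = 0.0534). Ppara, of the same receptor family as Pparg, was low, with a mean under 1 FPKM over all libraries, and was called higher (0.82, limma adjusted p = 0.00674). Ppard (0.09) was not called. Of the calmodulin-dependent kinases that act between Wnt5a and NLK, Camk2d was called lower (-0.32, and -0.17 with chromosome medians removed). Camk2a was called higher (0.22, adjusted p = 0.0429), a call that ended without each library but WT replicate 3 (adjusted p up to 0.140), and Camk2g (-0.04) was not called. Camk2b was at -0.73, and its call ended without replicate 1 of either genotype or replicate 3 of Nlk-KO (adjusted p up to 0.0600). The fat cell targets of PPARG were mostly silent, with Fabp4 listed at 0, Adipoq and Cd36 near 0, and Plin2 at 13.1 and 13 FPKM (0.00).

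In the family of Chd7, Chd6, of chromosome 2, rose from 8.90 ± 0.541 to 12.1 ± 0.890 FPKM (SD, n = 3 each), a log2 change of 0.43 (limma adjusted p = 0.00249) and kept its call with chromosome medians removed (0.26). Chd1l was at -0.17, and its call ended without each library but Nlk-KO replicate 1 (adjusted p up to 0.0989). The other 7 relatives were not called. Among 9 tested partners and targets of CHD7, 3 were called higher and 0 lower (33.3% called, beside 37.1% of all loci). These 3 calls held whichever library was left out. Jag1, a Notch ligand, rose from 1.20 ± 0.0939 to 2.74 ± 0.138 FPKM (1.13, adjusted p = 9.41e-05). Sox9, a neural crest factor, went from 15.1 ± 1.28 to 21.7 ± 0.590 FPKM (0.52), and Sox4 was at 0.22.

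Other substrates and partners of NLK, none of them among the 8 members, included Tcf7l2 and Lef1, which encode TCF and LEF factors of Wnt signalling. Of 8 tested, Tab2 among them, 1 was called higher and 2 lower (37.5% called, beside 37.1% of all loci). Tcf7l2 fell from 3.88 ± 0.0960 to 2.63 ± 0.198 FPKM (SD, n = 3 each), a log2 change of -0.55 (limma adjusted p = 0.00101), and Mef2a rose from 27.5 ± 0.427 to 36.2 ± 1.63 FPKM (0.39, adjusted p = 3.50e-04). Tab2, an adaptor upstream of NLK on chromosome 10, was at -0.16, and its sign turned with chromosome medians removed (0.03, adjusted p = 0.575). Lef1 and Notch1 lay under the filter on low values. Lef1 was at 0.371 and 0.00755 FPKM and Notch1 at 0.286 and 0.706 FPKM, and both were called in the fit without that filter (limma adjusted p = 1.82e-04 and 0.00268).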

How the data were processed

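RNA-seq of 3 WT and 3 Nlk-KO N2a libraries was used. Per the submitters' processing notes, the authors aligned reads with TopHat2 (2.1.0) to mm10 (GRCm38) and estimated expression with Cufflinks (2.2.1) and Cuffnorm, and they deposited FPKM for each locus and library. The annotation, the scaling between libraries and the use of strand are not given in the sources read. The authors' own fold changes, p-values and adjusted p-values in the table were not used, nor was the other deposited table. Names tied each column to a sample, which left 0 columns of values without one. After adding 0.1, log2 values of loci averaging 0.5 FPKM or more were compared by limma (3.58.1, under R 4.3.3), with the prior variance following the mean. The fit was tested on simulated data. FPKM steps gave relative depth and the whole fragments of Foxo1, and total reads per library are not known. Members and lists were chosen with earlier results of these data known. Named list genes were up to 4 per list with the largest called change, at a mean of at least 1 FPKM, and others were chosen after their values were seen. A few genes that this rule would name are left out. Alternatives were other pseudocounts, filters, scalings and variance priors, removal of chromosome medians, a replicate block, summed loci and leaving out each library. Gene structures came from GENCODE and promoter windows from RefSeq (GRCm38.p6). The promoters of Foxo4, Foxo6 and Chd7 were not analysed here.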

Additional observations from a re-analysis of the deposited data

How the results depend on the processing

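The calls of Myb, Foxo3 and Foxo4 held whichever library was left out. Leaving out single libraries gave 3500 to 4504 called loci, 3 to 4 called members and 58 to 74 called list genes, and log2 fold changes of -0.12 to -0.072 for Setdb1 (called without Nlk-KO replicate 2) and -0.033 to 0.12 for Chd7. Scaling libraries to the same FPKM sum over loci with a symbol called 937 loci, 581 higher and 356 lower (62.0% higher, against 50.2%), 1 member (Myb) and 12 list genes. The Foxo3 log2 fold change was then -0.23 and that of Foxo4 0.55, neither called, and the cause was not tested. The standard error for Foxo3 was then 0.20, against 0.051 as deposited. The factors that scaled the libraries ran from 0.862 to 1.16 for the same sum, against 0.985 to 1.01 for the same upper quartile. With the same upper quartile, Foxo3 and Foxo4 were both called (limma adjusted p = 0.00445 and 2.29e-04). They were also called with quantile normalization (limma adjusted p = 0.00383 and 3.00e-04). Removing chromosome medians gave -0.11 for Foxo3, 0.14 for Stat3 (called), 0.051 for Setdb1 and -0.0057 for Chd7, and turned Ptpn1 (-0.011) and Tab2 (0.027). Replicate numbers did not pair the libraries: deviations of same-numbered libraries correlated at 0.0374, 0.0599 and -0.132. With the replicate block, 4038 loci and 3 members were called. At its depth of 8 and 6 fragments, the Foxo1 ratio was bounded only between 0.20 and 2.30.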
